A study of Mus musculus with 5 samples.

Results

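The interleukin-1 (IL-1) family ligands and receptors were followed as 9 genes, Il1a, Il1b, Il1rn, Il1r1, Il1r2, Il1rap, Il18, Il33 and Il1rl1, taken by name from the 23173 genes listed in any of 5 single-cell libraries of mouse colon. All 9 were listed in every library. Droplet libraries of the inDrop type, in which the 3′ end of each transcript is tagged with a unique molecular identifier (UMI) so that each molecule is counted once, had been made from wild-type mice. Of the 5 libraries, 4 came from colonic tumors raised with the carcinogen azoxymethane and the irritant dextran sodium sulfate (AOM/DSS), in mice that had then received 5FU+Irinotecan. The labels date them to day 1, with replicates 1 and 2, day 3 and day 6, and the study groups the day 1 libraries as early and the later ones as late. The untreated comparison was 1 library of colon stroma without tumor, also wild type, prepared by a fibroblast dissociation. The tumor preparation kept crypts and discarded what passed the filter, the stroma preparation removed crypts, so the mixture of cells in a library is partly set by the preparation. The mice were young adults when the experiments began, on a C57BL/6J or mixed C57BL/6J;129 background, and the treated ones were older at harvest. The study gave repeated chemotherapy cycles once tumors had formed and took tissue after the last cycle. No tumor library of untreated mice was analysed here, and the number of mice behind a library is not given in the sources used here. Day 1 replicate 1 and day 3 carried a single index and day 1 replicate 2, day 6 and the stroma a dual index, on different sequencers, so each of the early and late groups holds 1 library of each kind.

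Cells with at least 500 genes and at most 15% of UMIs from mitochondrial genes were kept, which left 748, 2403, 1419 and 2826 treated cells in the order day 1 replicate 1, day 1 replicate 2, day 3 and day 6, and 1095 stroma cells. The 5 libraries held 5132360 to 16904947 UMIs, with medians of 2903 to 3601 UMIs in kept cells. Any pair of libraries shared 4 to 42 cell barcodes. Cells were clustered without the 9 genes and without 34 other genes of the pathway, and clusters were named only as "like" a type from marker genes. The broad columnar tumor class had none of its markers among the leading genes of most of its clusters and is the least firm name. Day 3 stood apart in its immune cells, with 5 macrophage-like cells against 48, 140 and 155 in day 1 replicate 1, day 1 replicate 2 and day 6. Of the stroma library 262 cells (23.9%) were fibroblast-like and 331 (30.2%) columnar epithelial, so it was not a pure fibroblast sample. Levels are given as UMIs per 1000000 UMIs of the same cells (CPM). Intervals are 95% exact Poisson intervals for CPM and exact binomial intervals for shares, and cover counting error only.

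IL-1α and IL-1β are ligands of a receptor made of IL1R1 and the shared chain IL1RAP, which signals through MYD88 to NF-κB and switches on chemokines and cytokines. The family limits itself at several points. IL1RN is an antagonist that occupies IL1R1 without signaling, and IL1R2 is a decoy that binds the ligand but has no signaling domain. IL-33 is a nuclear alarmin released from damaged cells, read by IL1RL1 (ST2) together with IL1RAP, and IL-18 is an epithelial and myeloid ligand activated by caspase-1. In the colon the ligands are known mainly from myeloid cells and from stressed epithelium, and the receptors from stroma, endothelium and leukocytes.

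In GRCm38.p6, 3 of the receptor genes lie in this order on the plus strand, Il1r2 at chr1:40084692-40125230, Il1r1 at chr1:40222480-40316201 and Il1rl1 at chr1:40404864-40465418. Il1rn lies at chr2:24336860-24351491 on the plus strand, and Il1a at chr2:129299609-129310186 and Il1b at chr2:129364569-129371164 lie on the minus strand. Il18 lies at chr9:50554700-50581841, Il1rap at chr16:26581509-26730128 and Il33 at chr19:29925113-29960718, all on the plus strand. The counts are made from 3′ tags of whole genes, so forms that start at different first exons are summed. This matters for Il1rn, whose first start is known for the intracellular antagonist and whose next start, 8431 bases further on, for the secreted one. It matters also for Il1rl1, whose distal start is known from mast cells and whose proximal start, 10059 bases further on, from fibroblasts, and whose soluble form acts as a decoy for IL-33. The 250 bases before each of these starts (RefSeq, GRCm38.p6) are shown with that of Il1b, the most strongly counted ligand, because the levels below cannot be divided between them. Capitals mark a match to TATAAA or to the AP-1 motif TGANTCA on either strand.
Il1b, minus strand, chr2:129371140-129371389: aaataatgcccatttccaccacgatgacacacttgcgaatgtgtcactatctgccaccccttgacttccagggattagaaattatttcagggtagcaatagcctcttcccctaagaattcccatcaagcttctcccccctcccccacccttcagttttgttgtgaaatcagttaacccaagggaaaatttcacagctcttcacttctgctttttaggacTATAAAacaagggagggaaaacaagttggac
Il1rn, first start, plus strand, chr2:24336610-24336859: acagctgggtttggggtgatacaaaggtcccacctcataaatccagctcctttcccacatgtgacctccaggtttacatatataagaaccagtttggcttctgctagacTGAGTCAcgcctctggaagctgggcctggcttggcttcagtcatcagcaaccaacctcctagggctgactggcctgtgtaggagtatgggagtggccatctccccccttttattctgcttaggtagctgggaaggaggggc
Il1rn, next start, plus strand, chr2:24345041-24345290: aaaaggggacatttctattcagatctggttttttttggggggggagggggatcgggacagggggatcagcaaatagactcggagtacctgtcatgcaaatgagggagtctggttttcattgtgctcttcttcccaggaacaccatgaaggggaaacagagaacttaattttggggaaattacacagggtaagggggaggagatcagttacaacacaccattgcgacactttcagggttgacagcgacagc
Il1rl1, distal start, plus strand, chr1:40429320-40429569: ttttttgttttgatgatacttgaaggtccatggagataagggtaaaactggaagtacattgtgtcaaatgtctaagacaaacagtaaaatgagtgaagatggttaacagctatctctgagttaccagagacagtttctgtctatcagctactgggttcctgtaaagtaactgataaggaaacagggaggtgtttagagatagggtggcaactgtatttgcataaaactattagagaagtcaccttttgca
Il1rl1, proximal start, plus strand, chr1:40439379-40439628: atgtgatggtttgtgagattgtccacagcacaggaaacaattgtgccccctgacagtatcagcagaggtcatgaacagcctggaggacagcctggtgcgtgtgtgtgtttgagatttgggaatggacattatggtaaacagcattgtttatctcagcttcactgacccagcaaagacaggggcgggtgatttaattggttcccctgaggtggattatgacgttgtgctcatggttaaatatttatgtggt
The TATA box of Il1b begins 31 bases before the start and that of Il1a 32 bases before its own, while 12.4% of 32851 RefSeq promoters hold TATAAA in such a window. The AP-1 match before the first start of Il1rn begins 141 bases upstream, and 6.75% of promoters hold that motif. Neither motif, nor a match to the NF-kappaB site, was found in the printed windows of the next Il1rn start and of both Il1rl1 starts.

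Il1b was the ligand of the myeloid cells. In neutrophil-like cells, which are short-lived granulocytes, it reached 4900.1 CPM (interval 4569 to 5248) in day 1 replicate 1, 2978 in day 1 replicate 2, 1379.5 in day 3 and 3443 in day 6. Macrophage-like cells held 4595, 2451 and 2130.4 CPM in the libraries other than day 3, whose 5 such cells gave 6 UMIs. Both myeloid types lay far above the columnar tumor cells, at 66.9, 32.5, 27.0 and 15.8 CPM. When each cell was thinned to 1000 UMIs, 92.6, 80.7, 60.7 and 82.6% of neutrophil-like cells kept an Il1b UMI (95.6, 93.1, 89.3 and 87.5% unthinned). The share in columnar tumor cells, taken as the level of free RNA, was 2.86, 2.59, 3.79 and 1.21% (10, 10.4, 8.71 and 3.75% unthinned), with median depths of 2073 to 6717 UMIs against 1419 to 2242 in the neutrophil-like cells. In macrophage-like cells 52.1, 48.6 and 39.3% kept one (70.8, 63.6 and 59.4% unthinned, median depths 3520 to 4734.5 UMIs). The class was mixed. Its cluster led by Lyz2, Thbs1 and Chil3, with 30, 113 and 106 cells, held 7293, 3031 and 3587 CPM, and its cluster led by the complement genes C1qa, C1qb and C1qc, with 18, 27 and 49 cells, 242, 240 and 280 CPM. In the normal stroma, where no neutrophil-like cluster was found, 70 macrophage-like cells held 1899.8 CPM (interval 1737 to 2073) and 93.7% of all Il1b UMIs.

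**Figure D1:**
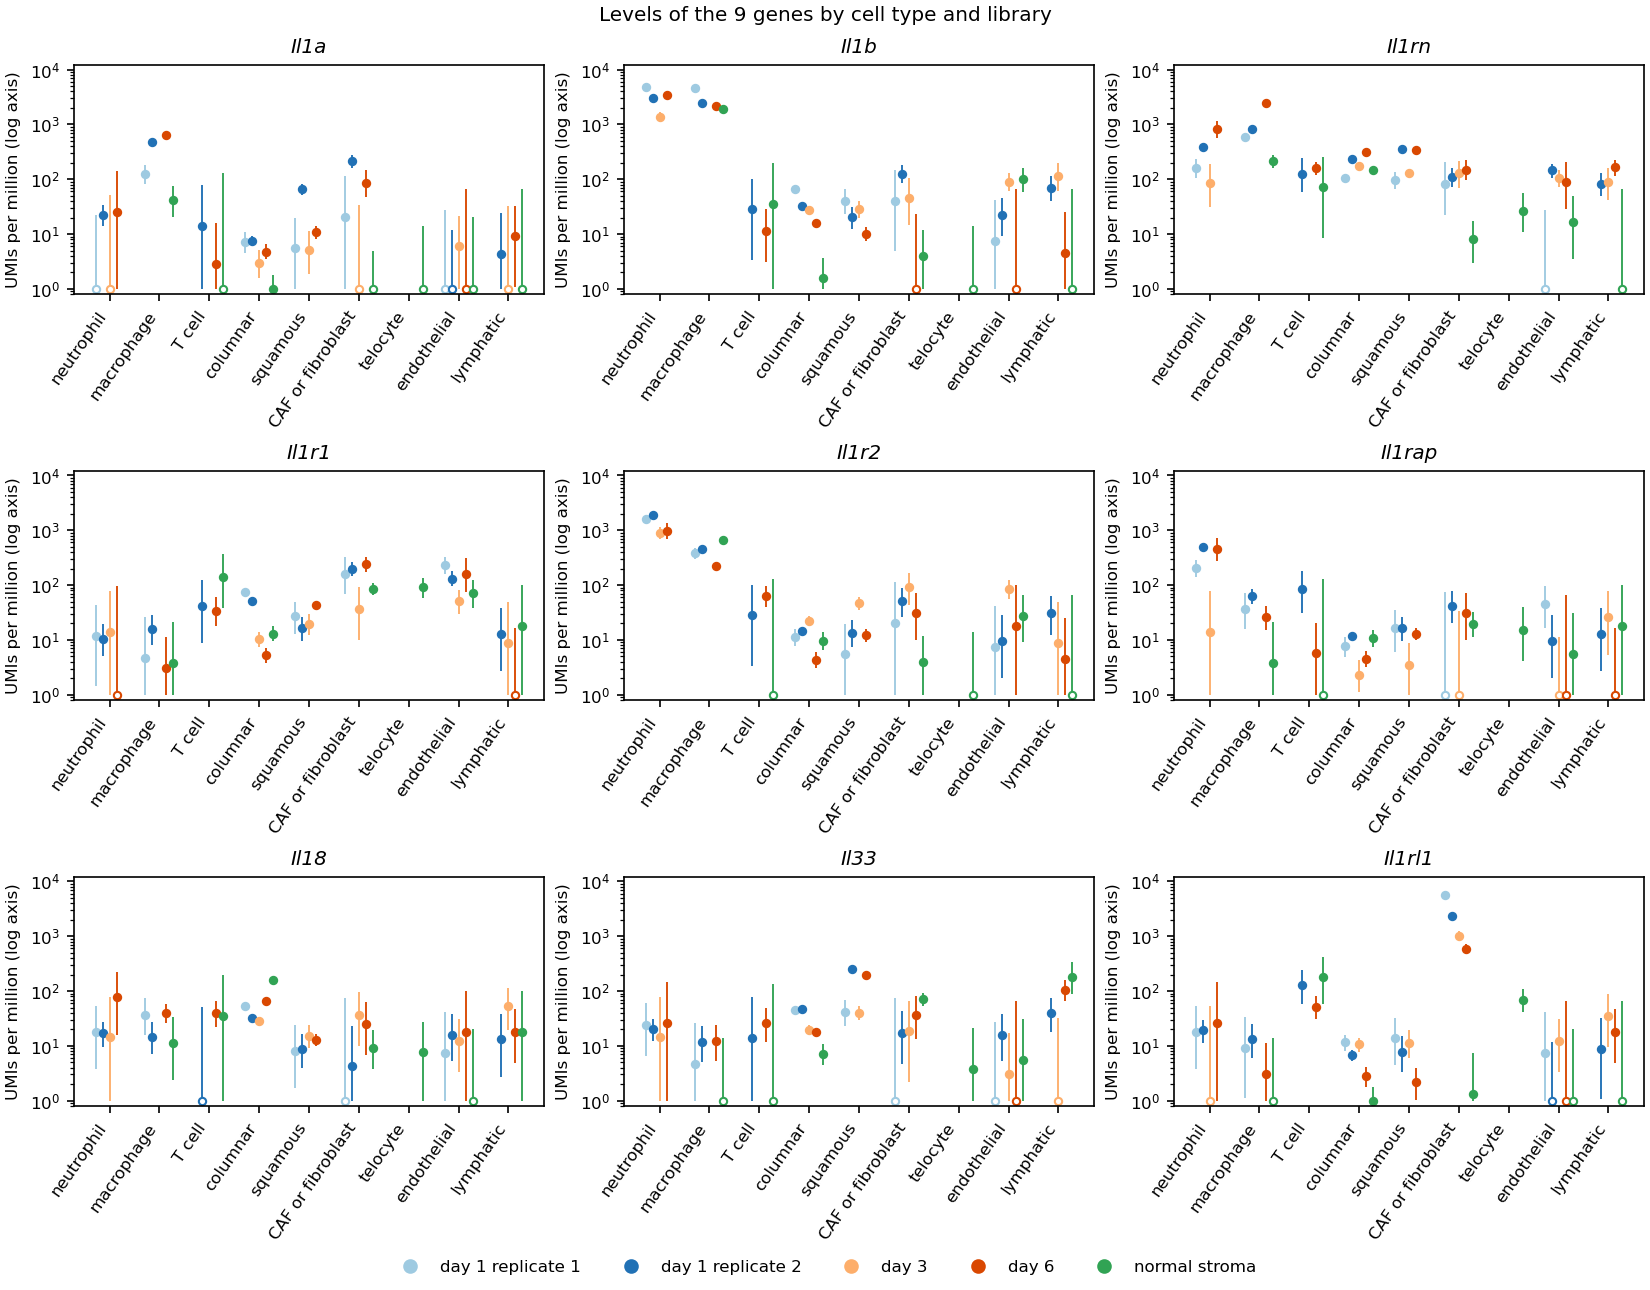
Levels of the 9 genes by cell type (horizontal) and library (colors), in CPM on a logarithmic axis with 95% exact Poisson intervals; types with at least 10 cells are drawn, open symbols are sums with 0 UMIs placed at 1, and values under 1 are also placed at 1. Il1b and Il1r2 stand highest in neutrophil-like cells and macrophage-like cells, Il1rl1 in CAF-like cells (587 to 5678 CPM), while Il18 in columnar cells (28.4 to 65.9 CPM in the tumors) overlaps with smaller sums of other types.

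Il1a, the alarmin form of IL-1, was sparser and came from macrophage-like rather than neutrophil-like cells. Macrophage-like cells held 27, 325 and 415 UMIs in day 1 replicate 1, day 1 replicate 2 and day 6, or 125 (interval 82.5 to 182), 477 and 639 CPM. Neutrophil-like cells held 0, 21, 0 and 1 UMIs in the 4 libraries. The Lyz2-led cluster again carried nearly all of it, at 203, 595 and 1109.6 CPM, against 0, 28.3 and 42.0 CPM in the C1qa-led cluster. A few other cells contributed. CAF-like cells, the fibroblasts of the tumors, held 1, 51, 0 and 14 UMIs, of which 30 of the 51 and 13 of the 14 lay in 1 cell. Squamous-like cells, which carry keratins of stratified epithelium, held 2, 68, 6 and 50 UMIs, or 5.45, 65.9, 5.14 and 10.9 CPM, and were high in day 1 replicate 2 alone. After thinning, 16.7, 15 and 18.7% of macrophage-like cells kept an Il1a UMI (16.7, 25.7 and 27.1% unthinned), against 0.357, 0.890, 0.223 and 0.728% of columnar tumor cells, the reference for free RNA (1.79, 3.48, 1.23 and 2.28% unthinned). Stroma macrophage-like cells gave 11 UMIs, 7 of them from 1 cell.

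Il1rn, the receptor antagonist, was counted widely, in epithelial as well as myeloid types. Macrophage-like cells held 598 (interval 499 to 711), 833 and 2429 CPM (2311 to 2552) in day 1 replicate 1, day 1 replicate 2 and day 6, so that day 6 lay above both early libraries. Neutrophil-like cells held 162, 394, 85.3 and 822 CPM, from 27, 372, 6 and 32 UMIs, and the early and late ranges overlapped. Columnar tumor cells were lower per UMI, at 103, 237, 174 and 317 CPM, but as the most numerous cells they held 51.0, 62.4, 73.8 and 43.6% of all Il1rn UMIs. Squamous-like cells held 95.4, 351, 128 and 342 CPM, close to the columnar cells of the same library. Among columnar clusters the highest with over 100 cells were the Clca4a-led cluster of day 1 replicate 2 (509 CPM, 411 cells) and the Clca4b-led cluster of day 6 (419 CPM, 336 cells), whose other leading genes included Saa1, Nos2 and Ido1, known as inflammatory response genes. In the normal stroma library columnar epithelial cells also held 145 CPM, 82.5% of its Il1rn UMIs, and fibroblast-like cells held 6 UMIs. After thinning, an Il1rn UMI was kept by 35.4, 43.6 and 48.0% of macrophage-like cells (54.2, 65.7 and 69.7% unthinned) and by 9.64, 21.8, 13.2 and 28.9% of columnar tumor cells (43.2, 63.5, 43.0 and 57.8% unthinned). Columnar cells had been chosen as the type that should lack Il1rn and cannot serve as one, so other types give the background. Paneth-like cells of day 1 replicate 1, day 1 replicate 2 and day 3 kept an Il1rn UMI in 12.0, 16.8 (interval 9.94 to 25.9) and 7.41% (25, 44.2 and 38.3% unthinned). Endothelial-like cells of day 1 replicate 2 kept one in 17.7% (43.5% unthinned) and erythrocyte-like cells there in 10.4% (23.4% unthinned). In day 6 the share was 13.6% (8.64 to 20.1) in T cell-like cells (25.3% unthinned) and 13.6% in lymphatic endothelial-like cells (30.5% unthinned), below the columnar interval of 26.4 to 31.6%. In day 1 replicate 1 and day 3 the columnar share was within the intervals of these types and is not separated from free RNA. In day 1 replicate 2 the types disagreed. The columnar interval of 19.6 to 24.3% lay above those of T cell-like (0 to 13.2%) and erythrocyte-like cells (4.59 to 19.4%). It overlapped those of Paneth-like, endothelial-like (9.20 to 29.5%) and lymphatic endothelial-like cells (1.70 to 21.9%). In the stroma library columnar Il1rn is separated, with 11.7% of columnar epithelial (44.7% unthinned) against 0.431% of fibroblast-like cells (2.29% unthinned). Squamous-like cells of the 4 tumor libraries kept an Il1rn UMI in 1.92, 29.3, 13.1 and 26.6% (30.8, 60.1, 35.8 and 71.8% unthinned). In day 1 replicate 2 the squamous-like interval was 22.9 to 36.3%, which overlaps that of Paneth-like cells.

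Set against the agonists, the antagonist was the smaller part of the UMIs in neutrophil-like cells and in the pooled macrophage-like class. It was the larger part in epithelium, where these UMIs include free RNA. In day 1 replicate 2 and day 6 the C1qa-led macrophage-like cluster held more Il1rn than Il1a and Il1b together. In day 1 replicate 1 that cluster held less. Columnar cells are the free RNA reference for Il1a and Il1b. Their Il1rn is separated from all the background types given above in day 6 alone. Those types disagreed in day 1 replicate 2, so columnar shares other than that of day 6 are not firmly separated from background UMIs. Among the UMIs of Il1rn, Il1a and Il1b, Il1rn made up 3.21, 11.6, 5.83 and 19.2% in neutrophil-like cells. It made up 11.2, 22.1 and 46.7% in macrophage-like cells and 9.82% in those of the stroma. In columnar tumor cells it made up 58.3, 85.6, 85.3 and 93.9%, and in squamous-like cells 67.3, 80.3, 79.3 and 94.2%. The 58.3% of day 1 replicate 1 became 91.2% when the cells with the highest doublet scores were removed, and 74 of its 208 Il1b UMIs lay in 1 cell. The ranges of both epithelial types overlapped, and no epithelial sum fell as low as any neutrophil-like or pooled macrophage-like one. It was not a mark of epithelium, since T cell-like cells of day 6 gave 91.8% and endothelial-like cells of day 1 replicate 2 gave 86.5%. Among the sums of at least 10 cells, day 6 had the highest share in each of these myeloid and epithelial types. These are shares of UMIs of 3 genes with different transcript ends and say nothing of protein.

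**Figure D2:**
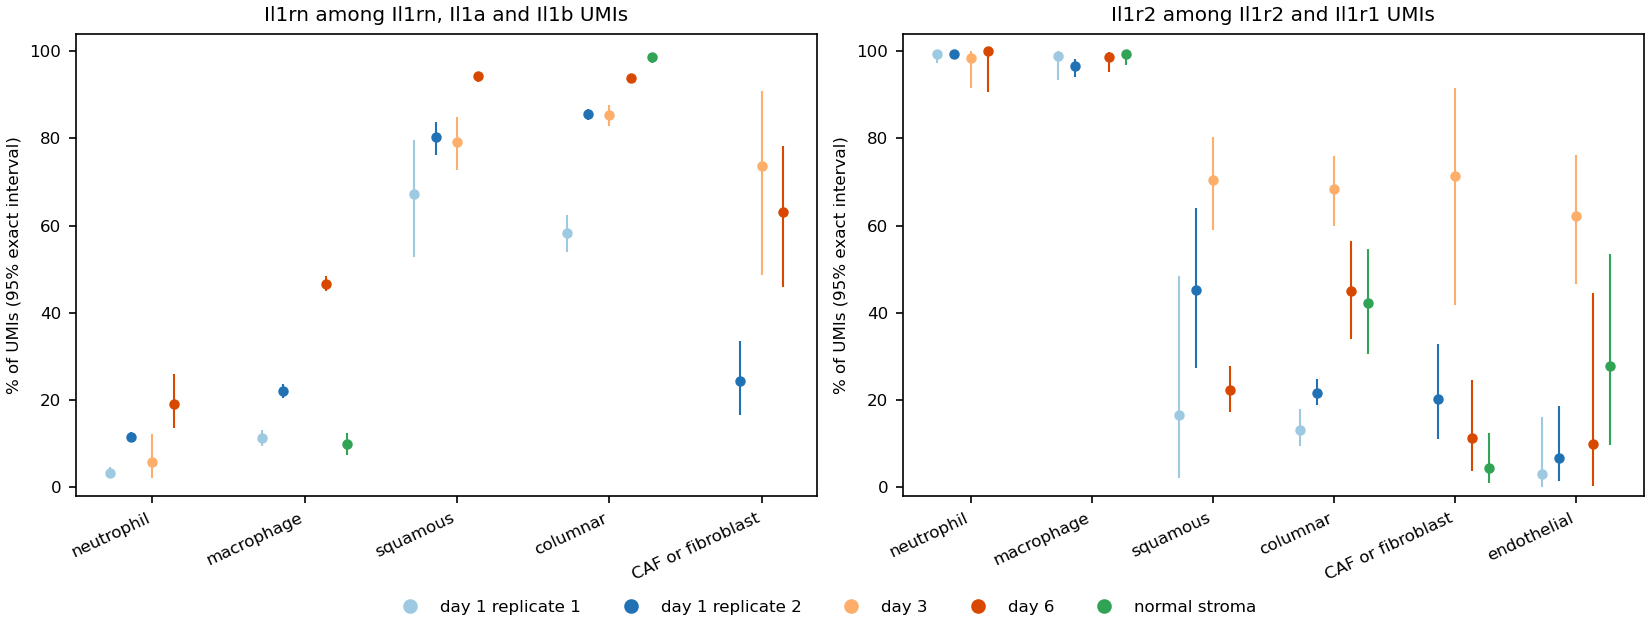
Share of Il1rn among the UMIs of Il1rn, Il1a and Il1b (one panel) and of Il1r2 among those of Il1r2 and Il1r1 (the other), in percent by cell type, with colors for libraries and 95% exact binomial intervals; sums of at least 10 UMIs are drawn. Columnar tumor and squamous-like cells lie at 58.3 to 94.2% antagonist and neutrophil-like cells at 3.21 to 19.2%, while the decoy receptor makes up 96.6 to 100% in myeloid cells.

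Il1r2, the decoy receptor, was the receptor of neutrophil-like cells. They held 1617, 1869, 896 and 976 CPM, so the early libraries were both above the late ones. Macrophage-like cells held 380, 457 and 228 CPM, and those of the stroma 676 CPM from 179 UMIs, of which 45 lay in 1 cell. After thinning, 63.2, 64.9, 50.0 and 52.2% of neutrophil-like cells (75.0, 78.1, 82.1 and 62.5% unthinned) and 1.43, 1.13, 2.90 and 0.404% of columnar tumor cells (8.57, 9.30, 7.37 and 2.57% unthinned), the reference for free RNA, kept an Il1r2 UMI. Signaling receptor was nearly missing beside it. Neutrophil-like cells held 2, 10, 1 and 0 Il1r1 UMIs, and Il1r2 made up 99.3, 99.4, 98.4 and 100% of the UMIs of both receptors. The 100% rests on 38 Il1r2 UMIs and has a lower limit of 90.7%. In macrophage-like cells the share was 98.8, 96.6 and 98.7%. Endothelial-like cells stood at the other end with 3.12 and 6.82% in the day 1 libraries and 1 of 10 UMIs in day 6, but at 62.2% (interval 46.5 to 76.2%) in day 3, where 28 Il1r2 UMIs were counted in 58 cells beside 30 of Il1b. Columnar tumor cells gave 13.3 and 21.7% in the early and 68.3 and 45.1% in the late libraries, which did not overlap, on 264, 764, 142 and 82 UMIs. Columnar cells were chosen beforehand as the free RNA reference for Il1r2, so its part in this share cannot be told from background. The columnar Il1r1 UMIs were 229, 598, 45 and 45, and no decoy balance is read from the share. With finer clusters (resolution 2) the share in day 1 replicate 2 was 39.3%, still below the late libraries.

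Il1rap, the shared accessory chain without which neither IL1R1 nor IL1RL1 signals, was at 204, 492, 14.2 and 463 CPM in neutrophil-like cells and highest there in 3 of 4 libraries. The 14.2 CPM of day 3 is 1 UMI in 28 cells and has an interval of 0.360 to 79.2 CPM, below those of the other 3 libraries, beside 26.2 CPM (3 UMIs) in lymphatic endothelial-like cells of day 3. Macrophage-like cells held 37.1, 63.2 and 26.2 CPM and columnar tumor cells 7.72, 11.7, 2.31 and 4.57 CPM. In the stroma 46.6% of its 73 UMIs came from columnar epithelial cells, at 10.9 CPM, and glial-like cells, the support cells of enteric nerves, gave 5 UMIs in 18 cells (102 CPM). B cell-like cells had been named as the type without Il1rap, and no such cluster was found in the tumors, so no share of cells is read.

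The neutrophil-like and macrophage-like cells of the same library were compared with library as a term, in the 3 libraries with at least 10 cells of each. Of 6943 genes tested 23.1% differed, 11.7% higher and 11.4% lower in neutrophil-like cells, at an adjusted p under 0.05. Of the 6 members tested, Il1r2 and Il1rap were higher in neutrophil-like cells and Il1a and Il1rn lower. Il1r2 was higher by 2.06 on the log2 scale (SE 0.23) and Il1rap by 3.17 (SE 0.30), with edgeR quasi-likelihood Benjamini-Hochberg adjusted p of 1.4e-17 and 9.9e-24. Il1a fell by 4.46 (SE 0.37) and Il1rn by 1.46 (SE 0.23) against macrophage-like cells, with edgeR adjusted p of 1.1e-30 and 7.6e-09. All 4 differences had the same direction in 3 of 3 libraries. The fit had 2 residual degrees of freedom, so these p-values rest mainly on a spread that edgeR estimates over all genes. They measure little of each gene's own spread between the 3 libraries. Il1b did not pass, at 0.32 (SE 0.21, edgeR adjusted p = 0.278), and its direction turned to -0.24 (SE 0.24) against the Lyz2-led macrophage-like cluster alone. The members tested are those with enough counts in these cells, and Il1r1, Il33 and Il1rl1 were not among them.

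Il1r1, the signaling receptor, was found in stroma and in some of the tumor epithelium. Endothelial-like cells held 233 (interval 158 to 331), 132, 51.3 and 162 CPM, and CAF-like cells 163, 198, 36.8 and 241 CPM, with day 3 the lowest in both. The stroma gave 91.7 CPM in telocyte-like cells, which are fibroblasts that lie under the epithelium, 86.5 in the fibroblast-like and 72.5 in the endothelial-like ones, and these 3 levels overlapped in their intervals. Neutrophil-like cells, the reference for free RNA, held 12.0, 10.6, 14.2 and 0 CPM. After thinning, an Il1r1 UMI was kept by 8.33, 14.5, 6.90 and 21.4% of endothelial-like cells (58.3, 27.4, 15.5 and 26.7% unthinned, median depths 1906 to 5949.5 UMIs) and 2.94, 1.27, 3.57 and 0% of the reference (2.94, 2.29, 3.57 and 0% unthinned, median depths 1419 to 2242 UMIs). In CAF-like cells the shares were 7.14, 12.8, 0 and 11.8% (35.7, 59.0, 10 and 32.1% unthinned). CAF-like and endothelial-like cells, compared within libraries, gave an Il1r1 difference that did not pass (log2 difference 0.28, SE 0.32, edgeR quasi-likelihood Benjamini-Hochberg adjusted p = 0.735).

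In columnar tumor cells Il1r1 was at 73.7, 52.4, 10.4 and 5.27 CPM, the early libraries above the late ones. Most of it sat in 1 cluster, led by Mt4, Spock2 and Mdga2 and then by Wif1, Nkd1 and Dkk2, which are known as targets or regulators of WNT signaling. That cluster held 211 of the 229, 527 of the 598, 13 of the 45 and 6 of the 45 columnar Il1r1 UMIs. Its own level was 115, 121, 99.6 and 34.3 CPM. It had 156, 390, 23 and 16 cells in the 4 libraries, so the late libraries held few of them. They also held few cells of the Clca4a-led cluster (3 and 3) and of the Reg3b-led one (4 and 2). After thinning, 16.7 (interval 11.2 to 23.5), 12.1 (8.99 to 15.7), 13.0 (2.78 to 33.6) and 0% (0 to 20.6) of its cells kept an Il1r1 UMI (44.9, 42.3, 34.8 and 18.8% unthinned). Its cells were deep, at medians of 5852 to 9003.5 UMIs, but so were those of the neighboring Reg3b-led cluster, at 8313.5 and 7483, where 2.78 and 1.63% kept one (16.7 and 10.3% unthinned). The other columnar tumor clusters of at least 10 cells were at or below 14.5 CPM, apart from 65.3 CPM in 14 Clca4a-led cells of day 1 replicate 1. Among squamous-like clusters of at least 10 cells the highest was the one led by Ltf, Psca and Krt6b in day 6, with 146 UMIs in 278 cells (61.9 CPM) and 7.91% of cells after thinning (37.8% unthinned).

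**Figure D3:**
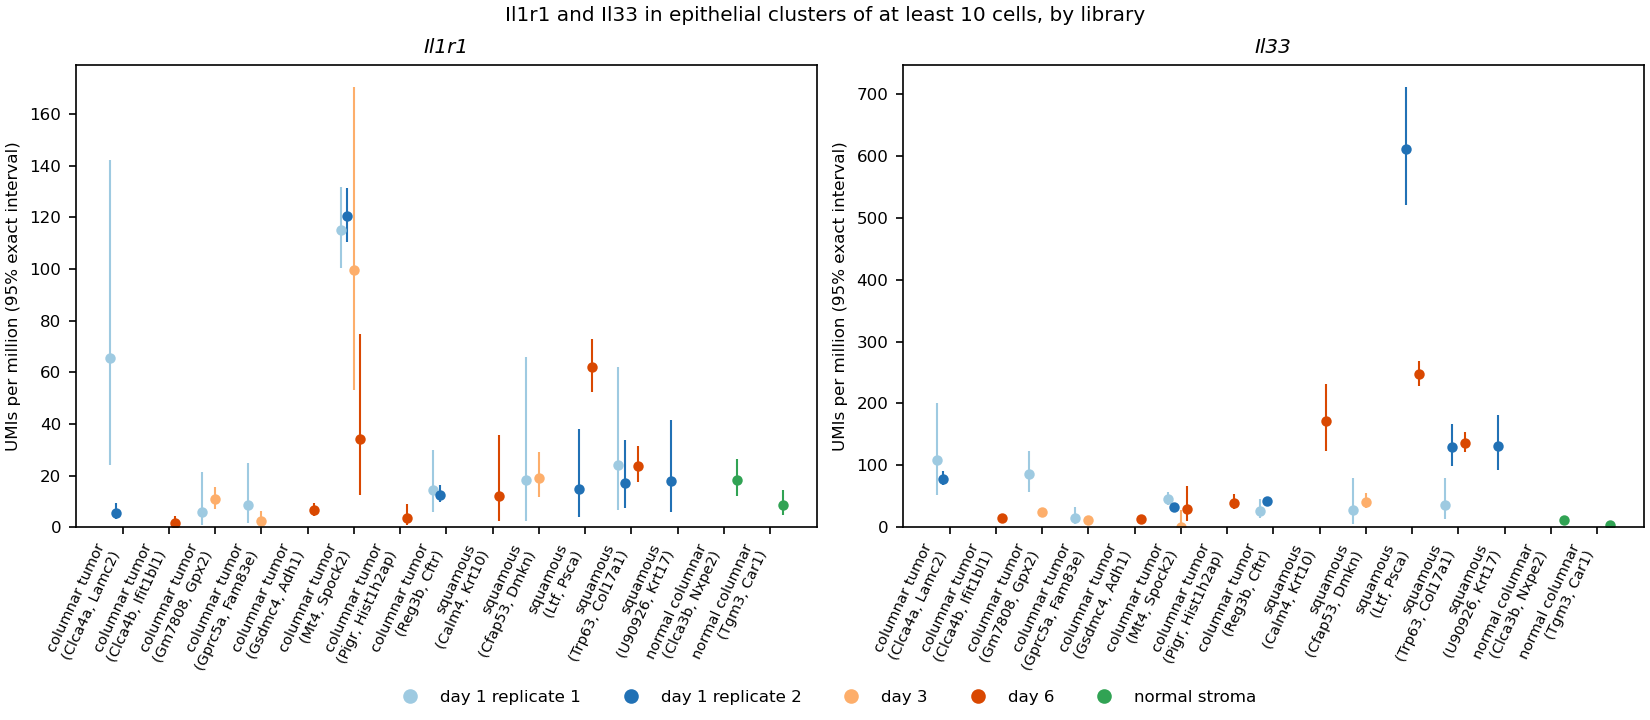
Il1r1 (one panel) and Il33 (the other) in each epithelial cluster with at least 10 cells, named by its leading genes, in CPM with 95% exact Poisson intervals and colors for libraries. Il1r1 is highest in the Mt4-led columnar cluster in day 1 replicate 1, day 1 replicate 2 and day 3 (99.6 to 121 CPM) and in the Ltf-led squamous-like cluster in day 6 (61.9 CPM), and Il33 in the Ltf-led squamous-like cluster (610 CPM in day 1 replicate 2, 248 CPM in day 6).

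Il33 was at its highest epithelial level per UMI in squamous-like cells of day 1 replicate 2, day 3 and day 6. The squamous-like levels in the 4 libraries were 40.9 (interval 22.9 to 67.5), 255 (225 to 288), 40.3 (29.6 to 53.6) and 196 CPM (183 to 209). The dual-index libraries, day 1 replicate 2 and day 6, were thus high and the single-index ones low, with no order between early and late. Columnar tumor cells held 45.4, 46.3, 19.4 and 18.2 CPM and were level with squamous-like cells in day 1 replicate 1. Being more numerous, columnar tumor cells gave most Il33 UMIs in 3 libraries, 141 of 185, 529 of 868 and 84 of 138 in day 1 replicate 1, day 1 replicate 2 and day 3, and 155 of 1112 in day 6. The squamous-like cluster led by Ltf, the gene of secreted lactoferrin, held 165 UMIs in 16 cells of day 1 replicate 2 and 586 in 278 cells of day 6. The Trp63-led cluster, with the transcription factor of basal squamous cells, held 36.4, 130 and 137 CPM in day 1 replicate 1, day 1 replicate 2 and day 6, and the Calm4-led one, with the suprabasal keratins Krt10 and Krt1, 171 CPM in day 6. The class was made of different clusters in each library. A Cfap53-led cluster held 272 of the 282 squamous-like cells of day 3 (41.5 CPM). A U90926-led cluster held 122 of the 188 of day 1 replicate 2 (131 CPM). In day 6 the Ltf-led, Trp63-led and Calm4-led clusters held 278, 304 and 144 of 728. Whether the library pattern follows cluster make-up or index type was not tested. After thinning, 1.92, 10.6, 4.26 and 13.4% of squamous-like cells kept an Il33 UMI (15.4, 22.3, 12.4 and 39.1% unthinned), against 2.94, 1.53, 0 and 0% of neutrophil-like cells (5.88, 4.33, 3.57 and 4.17% unthinned), the free RNA reference, at median depths of 2532.5 to 5683 and 1419 to 2242 UMIs. In day 1 replicate 1 the thinned share was no higher than the reference. The intervals overlapped in day 3 (2.22 to 7.32% against 0 to 12.3%) and day 6 (10.9 to 16.1% against 0 to 14.8%). They lay apart in day 1 replicate 2 alone (6.62 to 16.0% against 0.562 to 3.29%). Lymphatic endothelial-like cells of the tumors also held Il33, at 39.3 CPM (9 UMIs) in day 1 replicate 2 and 105 CPM (23 UMIs) in day 6, where 12.3% of cells kept a UMI after thinning (22.0% unthinned), and gave 0 UMIs in 27 cells of day 3. In the normal stroma 57.6% of 92 Il33 UMIs lay in fibroblast-like cells. There it reached 208 CPM in the 40 cells led by Cilp, Inmt and Pi16, known from adventitial fibroblasts, and 180 CPM (10 UMIs) in 21 lymphatic endothelial-like cells.

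Most Il18 UMIs came from columnar cells. Il18 stood at 54.0 (interval 46.2 to 62.9), 32.8, 28.4 and 65.9 CPM (60.5 to 71.6) there and at 8.18, 8.73, 15.4 and 13.0 CPM in squamous-like cells, with no overlap. Small sums of other types reached as high, at 77.1 CPM from 3 UMIs in neutrophil-like cells of day 6 (interval 15.9 to 225), 52.4 CPM from 6 UMIs in lymphatic endothelial-like cells of day 3 (19.2 to 114) and 38.5 CPM from 10 UMIs in Paneth-like cells of day 1 replicate 2 (18.5 to 70.8). Columnar tumor cells held 75.5 to 82.4% of its UMIs in each tumor library, and the columnar epithelial cells of the stroma library 92.5%, at 161 CPM (147 to 176). In that library the cluster led by Tgm3, Car1 and Sprr2a1, of the surface of the crypt, held 244 CPM, and the Clca3b-led one 70.3 CPM. After thinning, 4.64, 2.83, 3.57 and 6.22% of columnar tumor cells kept an Il18 UMI (32.9, 19.2, 12.1 and 22.4% unthinned), against 0, 1.78, 3.57 and 8.70% of neutrophil-like cells (4.41, 4.07, 3.57 and 12.5% unthinned), the reference. The intervals were 2.49 to 7.81% against 0 to 5.28% in day 1 replicate 1 and 1.98 to 3.92% against 0.719 to 3.64% in day 1 replicate 2. They overlapped in the late libraries too, which held 28 and 24 neutrophil-like cells. The thinned share thus did not separate the types in any tumor library. The tumor cluster with Gsdmc4, Adh1 and Selenbp1 of differentiated colonocytes among its leading genes held 88.7 CPM in day 6.

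Squamous-like and columnar tumor cells were compared within the 4 libraries. Of 12273 genes tested 16.5% differed, 7.55% higher and 8.91% lower in squamous-like cells. Of the 9 members, Il33 was higher, by 1.94 on the log2 scale (SE 0.50, edgeR quasi-likelihood Benjamini-Hochberg adjusted p = 0.030), and Il18 fell by 1.88 (SE 0.33, edgeR adjusted p = 0.0069). The sign of Il18 was the same in 4 of 4 libraries and that of Il33 in 3 of 4. Without day 1 replicate 2 the Il33 difference was 1.64 (SE 0.61) and no longer passed (edgeR adjusted p = 0.147). Il1rap at 1.01 (SE 0.32, edgeR adjusted p = 0.067), Il1a at 1.61 (SE 0.57, 0.095) and Il1r1 at 0.36 (SE 0.68, 0.801) did not pass, and Il1r1 turned to -1.55 (SE 0.40, edgeR adjusted p = 0.012) against the Mt4-led cluster alone. Il1rn was at 0.09 (SE 0.23, edgeR adjusted p = 0.857), and at 1.72 (edgeR adjusted p = 0.00015) against the Mt4-led cluster alone. Removing the cells with the highest doublet scores brought Il1a to 2.20 and Il1rap to 1.16, both then called (edgeR adjusted p of 0.035 and 0.046). Il1rap was also called at clustering resolutions 0.5 and 2 (edgeR adjusted p of 0.043 and 0.040), and Il1a with no filter on low counts (edgeR adjusted p = 0.0060).

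Il1rl1, the IL-33 receptor, belonged to the CAF-like cells. These cells, 14, 39, 30 and 56 in number, held 279, 546, 110 and 95 UMIs, which were 80.4, 79.4, 58.5 and 58.6% of all Il1rl1 UMIs of their library. The level was 5678, 2297, 1011 and 587 CPM, with both early libraries above both late ones. Single cells weighed heavily, with 162 UMIs in 1 cell of day 1 replicate 1, 161 in 1 of day 1 replicate 2, 18 in 1 of day 3 and 71 in 1 of day 6. Without that cell in each library the level was 2834, 1697, 907 and 162 CPM, in the same order. After thinning, 50.0 (interval 23.0 to 77.0), 43.6 (27.8 to 60.4), 43.3 (25.5 to 62.6) and 9.80% (3.26 to 21.4) of CAF-like cells kept an Il1rl1 UMI (50.0, 56.4, 66.7 and 14.3% unthinned). The share in neutrophil-like cells, the reference, was 1.47, 1.53, 0 and 0% (4.41, 4.07, 0 and 4.17% unthinned), at medians of 1419 to 2242 UMIs against 2019.5 to 4479 in CAF-like cells. By share of cells, then, day 6 was low and day 3 lay with the early libraries. The difference rests on 8 cells with a UMI among the 56 of day 6.

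Within the CAF-like class, other genes of the cells richest in Il1rl1 were read. Pdgfra is among the markers that named the class and Mmp10 leads its cluster, so neither gene is a separate test of the name. Of the CAF-like cells with at least 10 Il1rl1 UMIs, 4, 11, 4 and 1 in the 4 libraries, 3, 10, 2 and 1 also held a UMI of Pdgfra, the receptor for platelet-derived growth factor that marks fibroblasts, and 3, 11, 3 and 1 one of the matrix metalloprotease gene Mmp10. Mast cells and T cells are other known bearers of ST2. The 7 mast cell markers summed to 3, 2, 4 and 13 UMIs over the CAF-like cells, with at most 2 in 1 cell, and Ptprc, the pan-leukocyte gene, was found in 1, 2, 0 and 0 of the cells rich in Il1rl1. T cell-like cells held 1, 9, 0 and 18 Il1rl1 UMIs. In day 6, 6 of those 18 lay in the 3 T cell-like cells with at least 10 mast cell marker UMIs, of which 1 had 625. These single-cell counts were looked at after the levels were seen. In the normal stroma the 262 fibroblast-like cells held 1 Il1rl1 UMI (1.33 CPM, interval 0.0337 to 7.41), telocyte-like cells 18 UMIs (68.8 CPM), of which 8 lay in 1 cell, and T cell-like cells 5 UMIs. With 1 stroma library, another preparation and no tumor, this difference has no test.

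CAF-like and endothelial-like cells, the 2 stromal types with at least 10 cells in each tumor library, were compared within libraries. Of 3277 genes tested 11.7% differed, 5.19% higher and 6.56% lower in CAF-like cells. Il1rl1 was higher by 8.37 on the log2 scale (SE 0.57, edgeR quasi-likelihood Benjamini-Hochberg adjusted p = 3.0e-06), in 4 of 4 libraries, and was the called member among the 3 tested. Il1rn, the third, was at 0.44 (SE 0.47, edgeR adjusted p = 0.711).

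Where the UMIs of each gene came from changed with the cells a library held. Neutrophil-like cells gave 39.5, 56.0, 30.1 and 7.77% of all Il1b UMIs and macrophage-like cells 48.0, 33.2, 1.86 and 80.2%, while their shares of cells were 9.09, 16.4, 1.97 and 0.849% and 6.42, 5.83, 0.352 and 5.48%. In day 6 macrophage-like cells were thus the main source of Il1b, and the level per UMI in its 24 neutrophil-like cells, 3443 CPM, lay within the range of the early libraries. Summed over all cells, Il1b was at 403, 299, 48.4 and 107 CPM and Il1r2 at 78.4, 139, 40.5 and 19.8 CPM, early above late in both. The Il1rn total was 123, 259, 154 and 386 CPM, with overlap. Squamous-like cells took 8.11, 30.3, 34.1 and 80.9% of the Il33 UMIs and were 6.95, 7.82, 19.9 and 25.8% of cells. In a total over all cells, fewer cells of a type and less RNA of a gene per cell cannot be told apart, and the dissociation also sets these shares.

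**Figure D4:**
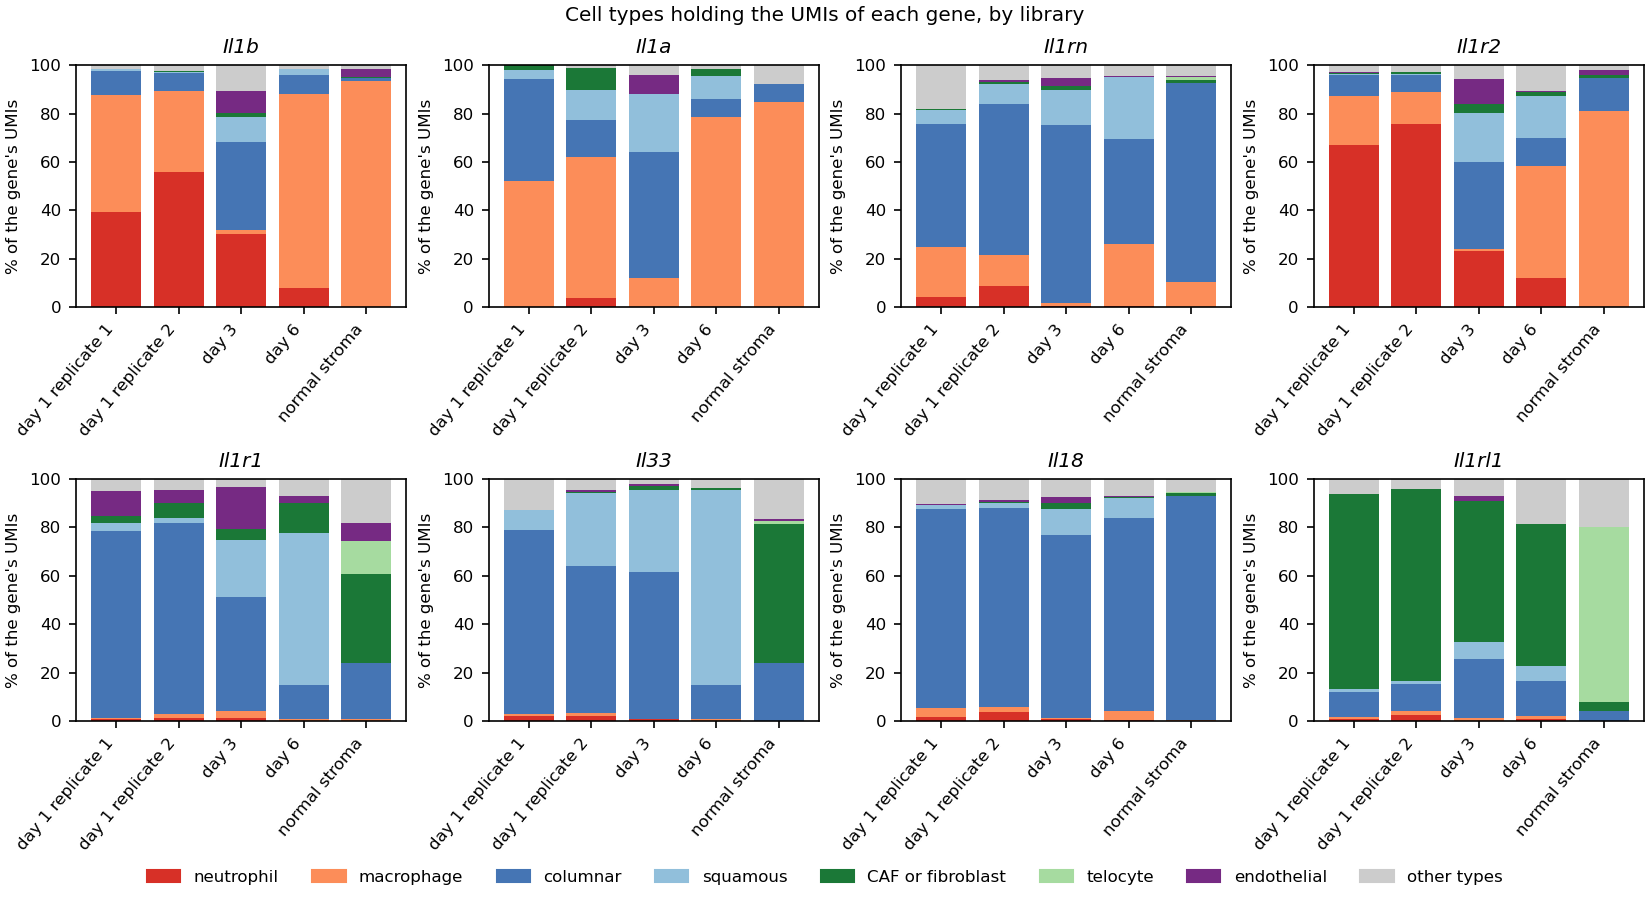
Percent of each gene's UMIs that came from each cell type, as stacked bars to 100% for the 5 libraries. The neutrophil-like part of Il1b falls to 7.77% in day 6 while the macrophage-like part is 80.2%, CAF-like cells hold 58.5 to 80.4% of Il1rl1 in the tumor libraries, and columnar cells 75.5 to 92.5% of Il18.

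Late and early libraries were then compared within each type, on sums of counts over the cells of a library, 2 libraries against 2 except where noted. In macrophage-like cells, where day 3 had too few cells and day 6 stood alone against both day 1 libraries, 1.96% of 8958 genes passed, 1.17% higher and 0.793% lower. Of the 6 members tested Il1rn rose, by 1.86 on the log2 scale (SE 0.52, edgeR quasi-likelihood Benjamini-Hochberg adjusted p = 0.024). DESeq2 gave the same size and did not call it (adjusted p = 0.236), nor did edgeR after the cells with the highest doublet scores were removed (adjusted p = 0.136). Il1rn was at 901, 957 and 3744 CPM in the Lyz2-led cluster and at 109, 360 and 759 CPM in the C1qa-led one, so day 6 was highest in both. Il1a at 1.17 (SE 0.50, edgeR adjusted p = 0.354) and Il1b at -0.64 (SE 0.57, edgeR adjusted p = 0.904) did not pass. The late group here is 1 library, so its own spread is not known.

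In columnar tumor cells edgeR called 0 of 13517 genes (0%; 2260 at an unadjusted p under 0.05, and 660 by DESeq2). None of the 9 members was called, with 2 at an unadjusted p under 0.05 and 1 called by DESeq2. Il1r1 was the member called by DESeq2. Its late-minus-early difference was -2.63 (SE 0.46, edgeR quasi-likelihood unadjusted p = 0.0012, Benjamini-Hochberg adjusted p = 0.182), and DESeq2 gave -2.61 (SE 0.56) with an adjusted p of 0.00047. It was also called by edgeR with no filter on low counts, with library structure as a block, and without day 3 or day 6 (edgeR adjusted p of 1.4e-05, 0.029, 0.0045 and 0.028). Within the Mt4-led cluster alone the difference was -0.80 (SE 0.53, edgeR adjusted p = 0.868). That cluster made up 55.7, 31.6, 2.57 and 1.18% of columnar tumor cells, a measured shift that moves with the columnar value. Il33 was at -0.88 (SE 0.33, edgeR adjusted p = 0.276), and Il1rn at 0.96 (SE 0.55, edgeR adjusted p = 0.417).

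In squamous-like cells edgeR called 0 of 9781 genes (0%; 392 at an unadjusted p under 0.05, 21 by DESeq2) and none of 9 members, with 1 at an unadjusted p under 0.05 and 0 by DESeq2. That member, Il1a, at -2.10 (SE 0.87, edgeR quasi-likelihood Benjamini-Hochberg adjusted p = 0.998), turned to 0.78 without day 1 replicate 2. The clusters that make up the squamous-like class differed between libraries, and the fit did not adjust for them. In CAF-like cells edgeR called 0 of 3333 genes (0%; 269 unadjusted, 11 by DESeq2) and none of 4 members, with 1 unadjusted and 0 by DESeq2. Il1rl1 was at -2.22 (SE 0.77, edgeR unadjusted p = 0.022, adjusted p = 0.584), and ranged from -2.77 to -1.43 when 1 library was left out. In neutrophil-like cells 0.0392% of 2550 genes passed and none of 4 members, with 0 at an unadjusted p under 0.05 and 0 by DESeq2. Il1b was at -0.69 (SE 0.70), Il1r2 at -0.89 (SE 0.59), Il1rap at -0.67 (SE 1.10; -4.71 without day 6, which leaves the 1 UMI of day 3 as the late value) and Il1rn at 0.65 (SE 0.96; -1.83 without day 6). These errors are close to the differences in size, so changes of that size were not detectable in these cells.

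**Figure D5:**
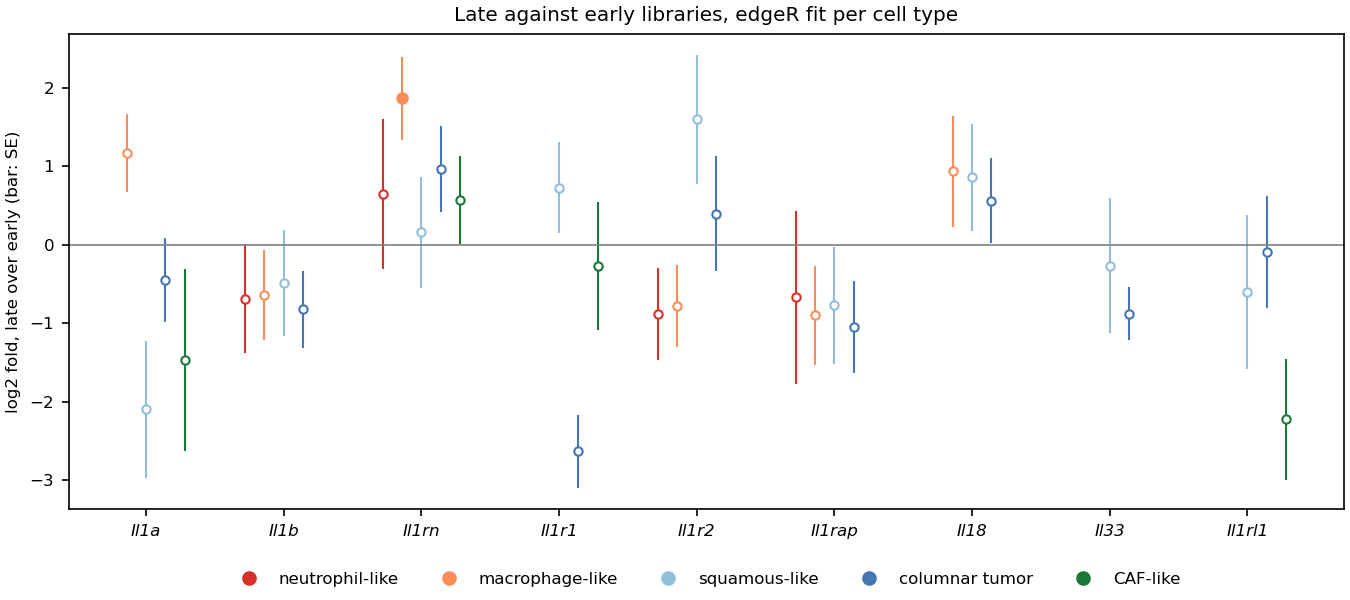
Late-minus-early difference of each member tested in each cell type, as log2 fold change with its standard error, with filled symbols for an edgeR adjusted p under 0.05. Il1rn in macrophage-like cells (1.86) is the filled one, and Il1r1 in columnar tumor cells (-2.63) has the largest size.

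Whether the late-minus-early change differed between types was tested as an interaction. Between neutrophil-like and macrophage-like cells 0.42% of 9292 genes passed, 0.28% higher and 0.14% lower, and 0 of 8 members, with 0 at an unadjusted p under 0.05 and 0 by DESeq2, and on simulated data this fit found almost none of the changed genes. For Il1rn the change was lower by 0.60 (SE 0.37) in neutrophil-like cells, beside a median of -0.79 over all genes of this fit. A difference between the types was not shown. Between squamous-like and columnar tumor cells 0.0371% of 13482 genes passed, 0.00742% higher and 0.0297% lower, and 0 of 9 members, with 2 at an unadjusted p under 0.05 and 1 by DESeq2. Il1r1 had the largest difference, 3.35 (SE 0.63, edgeR unadjusted p = 0.00041, adjusted p = 0.151, DESeq2 adjusted p = 0.0057). It passed in edgeR with no filter on low counts, at clustering resolution 0.5, and without day 3 or day 6, and did not pass without either day 1 library, at resolution 2, without the highest doublet scores (edgeR adjusted p = 0.111) or against the Mt4-led cluster alone (1.59, edgeR adjusted p = 0.930). The levels behind it were 27.3, 16.5, 19.7 and 42.6 CPM in squamous-like beside 73.7, 52.4, 10.4 and 5.27 CPM in columnar cells.

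The wider pathway was read from 34 listed genes of the same family and its signaling. Between neutrophil-like and macrophage-like cells 4 of 23 tested were higher and 5 lower, where 11.7% and 11.4% of all genes were. Il1f9, the ligand IL-36γ, was higher by 5.87 (SE 0.58), Il18rap, a chain of the IL-18 receptor, by 2.95 (SE 0.46) and Nfkbiz, a nuclear regulator of NF-κB targets, by 1.52 (SE 0.24). Il6 fell by 5.50 (SE 0.81) and the neutrophil chemokine gene Cxcl1 by 3.15 (SE 0.37), and these 5 had edgeR quasi-likelihood Benjamini-Hochberg adjusted p of 5.3e-09 or less. Cxcl1 was at -2.06 without day 1 replicate 2 (edgeR adjusted p = 0.067) and Il6 at -1.23 at clustering resolution 0.5 (edgeR adjusted p = 0.052). Between squamous-like and columnar tumor cells 2 of 24 were higher (7.55% of all genes were), Il1f9 by 3.85 (SE 0.66) and its receptor chain Il1rl2 by 2.21 (SE 0.36). In the same comparison 3 were lower (8.91% of all genes were), the inflammasome sensors Nlrc4 by -2.36 (SE 0.39) and Aim2 by -2.27 (SE 0.38) and the pore-forming Gsdmd by -1.83 (SE 0.37), which missed without day 1 replicate 1 (-1.68, edgeR adjusted p = 0.073). In squamous-like cells Il1f9 was at 5.45, 20.4, 6.86 and 17.2 CPM and Il1rl2 at 70.9, 53.3, 31.7 and 75.4 CPM. Between the epithelial types the counts lie near the shares of all genes. Between the myeloid types they lie above those shares, on 23 genes, and this excess was not tested. Neither is read as a result about the list. Median log2 differences between neutrophil-like and macrophage-like cells were -0.31 over the list and -0.05 over all genes. Between squamous-like and columnar tumor cells they were -0.08 and -0.06.

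In CAF-like against endothelial-like cells 1 of 10 pathway genes tested was higher, Cxcl1, by 3.66 (SE 0.67, edgeR quasi-likelihood Benjamini-Hochberg adjusted p = 0.0035). Its level in CAF-like cells was 2157, 3446, 211 and 945 CPM, and that of Ptgs2, the inducible prostaglandin synthase, 2748, 2979, 36.8 and 766 CPM, in both genes with the early libraries above the late ones and day 3 lowest. Of the pathway genes tested between late and early, edgeR called 0 of 12 in neutrophil-like, 0 of 25 in macrophage-like, 0 of 20 in squamous-like, 0 of 26 in columnar tumor and 0 of 12 in CAF-like cells. At an unadjusted p under 0.05 these were 1, 4, 1, 4 and 3, and DESeq2 called 0, 0, 0, 4 and 0. The interaction between squamous-like and columnar tumor cells called 0 of 28, with 4 at an unadjusted p under 0.05 and 0 by DESeq2.

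Across 41 sums of a type in a tumor library, the genes most like each member were found by Pearson's r of log2(CPM + 20) over 14679 genes. For Il1b they were Sirpb1c and Clec4d (both 0.96), and for Il1r2 Trem1 (0.96), Clec4d and Rasgrp4 (both 0.93), surface receptors and signaling genes of myeloid cells. Il1rap was most like Cd300lb (0.91). Il1a was most like Adap2 (0.84) and Il1r1 like Nkx2-3 (0.83), a homeobox gene of gut stroma. Il1rl1 was most like Smoc1, Cyp26b1 and Mmp10 (each 0.93), Il33 like Gsta4 (0.79) and Anxa1 (0.76), Il1rn like Plbd1 (0.75) and Il18 like Rdh16 (0.70). The sums share libraries and differ in depth, so these are descriptions of where the genes were counted.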

How the data were processed

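Droplets of the inDrop kind were sequenced after CEL-Seq amplification, which reads the 3′ end of transcripts. The authors aligned the reads with dropEst to mouse GRCm38 and deposited 1 matrix of raw UMI counts per library; the version of dropEst is not given in the sources used here, and no value had been normalized. From the counts, cells with at least 500 genes and at most 15% mitochondrial UMIs were kept, without removing doublets, since Scrublet in scanpy 1.11.5 called 12 of 7396 treated cells. Treated and stroma cells were clustered apart (2000 variable genes, 20 components, 20 neighbours, leidenalg 0.10.2, resolution 1), leaving out the 9 members and the 34 pathway genes, and named from marker lists. Library depth was 5132360 to 16904947 UMIs. Counts summed per library and type (at least 10 cells) were tested with the quasi-likelihood test of edgeR 4.0.16 in R 4.3.3 with Benjamini-Hochberg adjustment over all genes tested, with library as a term when types were compared within libraries. A standard error is the log2 fold change divided by the square root of F. The fits were tested on simulated data with known changes. Alternatives were DESeq2 1.42.0, no filter on low counts, each library left out, library structure as a block, clustering resolutions 0.5 and 2, and removal of cells in the top 6% of Scrublet scores; single clusters in place of the macrophage-like and columnar classes were added after seeing the data. Members, gene lists and types were chosen with earlier results of these data known. Named are all 9 members, the counts of pathway genes called with the 5 largest by absolute log2 fold change, and the most alike genes, of which the first 1 to 3 are printed. The study calls the early pair and the late pair biological replicates, a term it uses for different mice, and the late pair differs in day, so its spread includes time. Gene positions and promoters are from RefSeq on GRCm38.p6. Antisense transcripts overlap Il1b, Il1r2 and Il1rap (26, 15 and 3 UMIs in the treated libraries). Other genes on the opposite strand overlap Il1a (Gm14023, 130 UMIs) and Il18 (Tex12, 49 UMIs, and Bco2, without a count). Whether counting used strand is not given in the sources used here.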

Additional observations from a re-analysis of the deposited data

Results flagged for a closer look

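Among the pathway genes, the late-minus-early change differed between neutrophil-like and macrophage-like cells for 2 genes by the interaction test. For Cxcl2, the chemokine gene that draws neutrophils, the difference was 1.412 on the log2 scale (SE 0.27, edgeR quasi-likelihood Benjamini-Hochberg adjusted p = 9.2e-05). Its level was 2231, 2322 and 3983 CPM in neutrophil-like cells of day 1 replicate 1, day 1 replicate 2 and day 6, and 3111, 3131 and 1622 CPM in macrophage-like cells. For Nfkbia, the inhibitor of NF-κB that NF-κB itself induces, the difference was 1.436 (SE 0.34, edgeR adjusted p = 0.0087). Its level was 445, 671 and 1413 CPM in neutrophil-like and 959.8, 1256 and 810.3 CPM in macrophage-like cells, so in both genes day 6 was the highest neutrophil-like and the lowest macrophage-like library. The late side is day 6 alone, with 24 neutrophil-like cells. The median of this difference over all 9292 genes was -0.79, so the fit was not centered and the size of both differences is uncertain. On simulated data this fit found almost none of the changed genes. Neither passed against the Lyz2-led macrophage-like cluster alone (edgeR adjusted p of 0.097 and 0.103), and DESeq2 kept Cxcl2 (adjusted p = 0.0081) and not Nfkbia (0.214).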

How the results depend on the processing

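No paired analysis was possible because the replicate numbers of the late libraries only name them and no label ties an early to a late library through a shared animal, and the block on library structure reported here pairs libraries by index type and sequencer alone. Of 419 recomputed log2 fold changes, 370 kept direction and side of the threshold, 17 newly passed and 23 no longer passed it, and 9 reversed, none of them a called change in the report. With DESeq2 the genes called were 6 (neutrophil-like late against early), 19 (macrophage-like), 21 (squamous-like), 660 (columnar), 11 (CAF-like), 792 (neutrophil-like against macrophage-like), 13 and 74 (differences of change, myeloid and epithelial), and 0, 1 and 1 members in macrophage-like cells, columnar cells and the epithelial difference of change. With no filter they were 11 (neutrophil-like), 100 (squamous-like), 1160 (columnar), 44 (CAF-like), 1009 (CAF-like against endothelial-like) and 380 (epithelial difference of change), with 1, 2 and 1 members in columnar, CAF-like against endothelial-like and the epithelial difference. With library structure as a block they were 6 (neutrophil-like), 18 (squamous-like) and 241 (columnar, 1 member), a block being impossible for macrophage-like cells. At clustering resolution 0.5 they were 0 (neutrophil-like) and 130 (epithelial difference, 1 member). At resolution 2 the epithelial difference had 0, the decoy share in columnar cells was 18.5% and 39.3% in the day 1 libraries, the antagonist share in day 1 replicate 2 was 87.4%, and Il1rn between epithelial types reversed to -0.012. Without the highest Scrublet scores the counts were 0 (neutrophil-like) and 43 (macrophage-like, 0 members), 4 members differed between epithelial types, the antagonist share was 91.2%, 92.0% and 95.1% in columnar cells of day 1 replicates 1 and 2 and day 6 and 44.6% in macrophage-like cells of day 6, and the decoy share in columnar cells of day 1 replicate 2 was 15.9%. Single clusters, chosen after seeing the data, gave 2 (columnar), 20 and 8 (differences of change, myeloid and epithelial) and 4 members between epithelial types, with Il1b reversed to -0.24 between neutrophil-like and macrophage-like cells and Il1r1 to -1.55 between epithelial types. Without day 1 replicate 1 or 2 the counts were 0 to 4 (neutrophil-like), 13 to 36 (squamous-like), 0 to 8 (columnar), 3 to 30 (CAF-like), 421 to 855 (neutrophil-like against macrophage-like), 991 to 1201 (squamous-like against columnar), 225 to 364 (CAF-like against endothelial-like) and 0 (epithelial difference of change). Without day 3 or day 6 they were 66 and 153 (neutrophil-like), 104 and 27 (squamous-like), 1398 and 501 (columnar), 120 and 175 (CAF-like) and 966 and 189 (epithelial difference of change), and CAF-like against endothelial-like had 588 without day 3. Leaving out a library called 1 member in neutrophil-like and in CAF-like cells without day 6 (Il1rap and Il1a), 1 in columnar cells without day 3 or day 6 (Il1r1), 1 between epithelial types without day 1 replicate 2, and 1 to 2 in the epithelial difference. Without day 1 replicate 1 and without day 1 replicate 2, Il1rn between epithelial types was 0.15 and -0.14 and Il1a in late squamous-like cells -2.89 and 0.78, and without day 6 Il1r1 between epithelial types was -0.58 and Il1rn in late neutrophil-like cells -1.83. Il1rap in late neutrophil-like cells was -1.24 and 0.11 without day 1 replicate 1 or 2, and 0.39 without day 3. Macrophage-like late against early and the myeloid difference of change were not run without day 1 replicate 1, day 1 replicate 2 or day 6, which left a side with too few libraries. The causes of these changes were not tested. With 2 libraries a side and as few as 14 CAF-like and 24 neutrophil-like cells in a library, small changes were not detectable.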
